A study of Mus musculus with 4 samples.

Results

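The genes of MHC class II antigen presentation described here are the 7 genes *H2-Aa*, *H2-Ab1*, *H2-Eb1*, *Cd74*, *H2-DMa*, *H2-DMb1*, and *Ciita*, which were chosen by name from the 24421 genes with a deposited TPM value. They were followed in 4 RNA-seq libraries of cells sorted by FACS from the mouse main olfactory epithelium (MOE), the tissue that holds the olfactory sensory neurons (OSNs). GFP-positive and GFP-negative cells came from TAAR enhancer 1-GFP transgenic mice, and tdTomato-positive and tdTomato-negative cells came from TAAR enhancer 2-tdTomato transgenic mice, with 1 library for each group. All mice carried a PiggyBac transgene in which an enhancer of the trace amine-associated receptor (TAAR) genes was placed before the Hsp68 minimal promoter and the reporter, and the reporter-negative cells came from mice with the same transgene. Each transgene is represented by a single founder line, so the enhancer, the reporter, and the insertion cannot be told apart in a comparison of the lines. The labels give the strain as C57BL/6 and the age as adult, whereas the reporting summary of the study describes its mouse lines as having a mixed background of C57BL/6J and 129. The same summary gives an age of 14 days postnatal for the enhancer 1-GFP mice and 14 to 21 days for the enhancer 2-tdTomato mice, of both sexes.

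MHC class II molecules are pairs of an alpha and a beta chain that show peptides from the endosomal route to CD4-positive T cells. They are made mainly by dendritic cells, B cells, and macrophages, and other cells, epithelial cells among them, can be brought to make them by interferon gamma. *H2-Aa* and *H2-Ab1* encode the chains of the mouse I-A molecule, and *H2-Eb1* encodes the beta chain of I-E. *Cd74* encodes the invariant chain, which fills the groove of new molecules and leads them to the endosome. *H2-DMa* and *H2-DMb1* encode the chains of H2-M, which exchanges the remnant of the invariant chain for a peptide. *Ciita* encodes the transactivator that docks on the factors bound at the promoters of the other genes and switches those genes on together. TPM values are corrected for transcript length and add up to 1000000 in each library, so levels can be set side by side between genes, but how many reads a value rests on is not known. Since every group is a single library, no difference below could be checked against replicates and no p-value is given.

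The promoters on which the transactivator acts typically carry an X box, bound by the RFX complex, and a Y box, bound by NF-Y. RefSeq promoter sequences of GRCm38.p6, each running from 250 bases before to 50 bases after a start site, were matched by symbol for 4 of the 7 genes (*H2-Aa*, *H2-DMa*, *H2-DMb1*, and *H2-Eb1*) and for 4 of the 5 other MHC class II genes in the file (*H2-DMb2*, *H2-Eb2*, *H2-Oa*, and *H2-Ob*). A pair of strings, GNAAC for the X box core followed after 15 to 40 bases by ATTGG for the Y box, was searched for in these genes. The search covered the strand of the gene and the 250 bases before the start site. This search was chosen after the sequences had been seen. The pair was found in the promoters of *H2-Aa*, *H2-Eb1*, *H2-DMb1*, *H2-Eb2*, *H2-Oa*, and *H2-Ob*, and it was not found in that stretch for *H2-DMa* or *H2-DMb2*. The *H2-DMa* windows, chr17:34122582-34122881 and chr17:34125268-34125567, lie inside the GENCODE M21 span of the gene, which starts at 34119541. The sequence before that annotated start was not searched. Of all 32851 RefSeq promoters of the same length, 4.23% hold the pair, 84.8% hold GNAAC, and 37.4% hold ATTGG. These shares count either strand and the whole window, a wider search than that made for the genes here. Sequences are shown for the I-A alpha chain, both I-E beta chain genes, and the H2-O beta chain, whose levels are compared below, 5′ to 3′ on the strand of the gene, with the X box core and the Y box in capitals. The *H2-Aa* stretch is chr17:34287855-34287916 on the minus strand, and those of *H2-Eb1* (chr17:34305764-34305824), *H2-Eb2* (chr17:34325531-34325591), and *H2-Ob* (chr17:34238806-34238864) are on the plus strand. All 4 lie before the RefSeq start site and overlap no exon of the GENCODE M21 annotation, and their Y boxes end 43, 54, 95, and 52 bases before the start site.
H2-Aa: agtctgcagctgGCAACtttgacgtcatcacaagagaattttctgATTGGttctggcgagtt
H2-Eb1: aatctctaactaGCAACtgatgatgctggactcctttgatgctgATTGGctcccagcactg
H2-Eb2: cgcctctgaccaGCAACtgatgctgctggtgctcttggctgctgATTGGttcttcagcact
H2-Ob: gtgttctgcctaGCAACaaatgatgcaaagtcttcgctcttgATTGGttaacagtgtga

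The genes *H2-DMb1* and *H2-DMb2* both encode an H2-M beta chain, and the ratio between their levels differed among the libraries, as described below, so 30 bases around the X box core are shown for both, aligned without gaps on the Y box that follows. The *H2-DMb1* stretch is chr17:34153085-34153114 and overlaps a GENCODE M21 exon, while the *H2-DMb2* stretch, chr17:34145114-34145143, overlaps none, and both are on the plus strand. The capitals mark the core of *H2-DMb1* and the same positions in *H2-DMb2*. The stretches are identical at 28 of 30 bases, and the longer stretch from the core to the Y box at 33 of 38. Within the core the substitution is G1T, counted from 1 at the first base of the core with the base of *H2-DMb1* first, and the string searched is therefore not found there in *H2-DMb2*. A match or its absence is a description of the letters only.
H2-DMb1: gaggtttacctaGTAACtgatgatgctagg
H2-DMb2: gaggtttacctaTTAACcgatgatgctagg

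The libraries differed in ways that touch the values below. The 10 most abundant genes made up 5.72% of all TPM in the GFP-negative library, 31.5% in the GFP-positive library, 5.90% in the tdTomato-negative library, and 9.44% in the tdTomato-positive library, and since the total is fixed, a library with a few very abundant genes shows lower TPM for the rest. The libraries had between 15096 and 16840 genes above 0 TPM. *Omp*, the defining marker of mature OSNs, was at 1108 TPM or more in each of them, with the lowest level in the GFP-positive library.

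In the reporter-negative libraries *Cd74*, *H2-Aa*, *H2-Ab1*, and *H2-Eb1* were abundant. The lowest of them, *H2-Eb1*, ranked 466th among all genes in the GFP-negative library and 777th in the tdTomato-negative library. *H2-DMa* and *H2-DMb1* ranked lower, and *Ciita* ranked lowest of the 7 genes, at 9747 and 11883 in the same order. Together the 7 genes held 3078 TPM in the GFP-negative library and 1899 TPM in the tdTomato-negative library, beside 281 TPM in the GFP-positive library and 224 TPM in the tdTomato-positive library. The log2 ratio of the summed TPM was -3.45 in the enhancer 1 line and -3.08 in the enhancer 2 line, so that 9.12% and 11.8% of the reporter-negative level remained in the reporter-positive cells. *Cd74* alone held between 43.7% and 49.9% of the sum in each library. Without *Cd74*, the log2 ratios were -3.42 and -2.95.

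**Figure D1:**
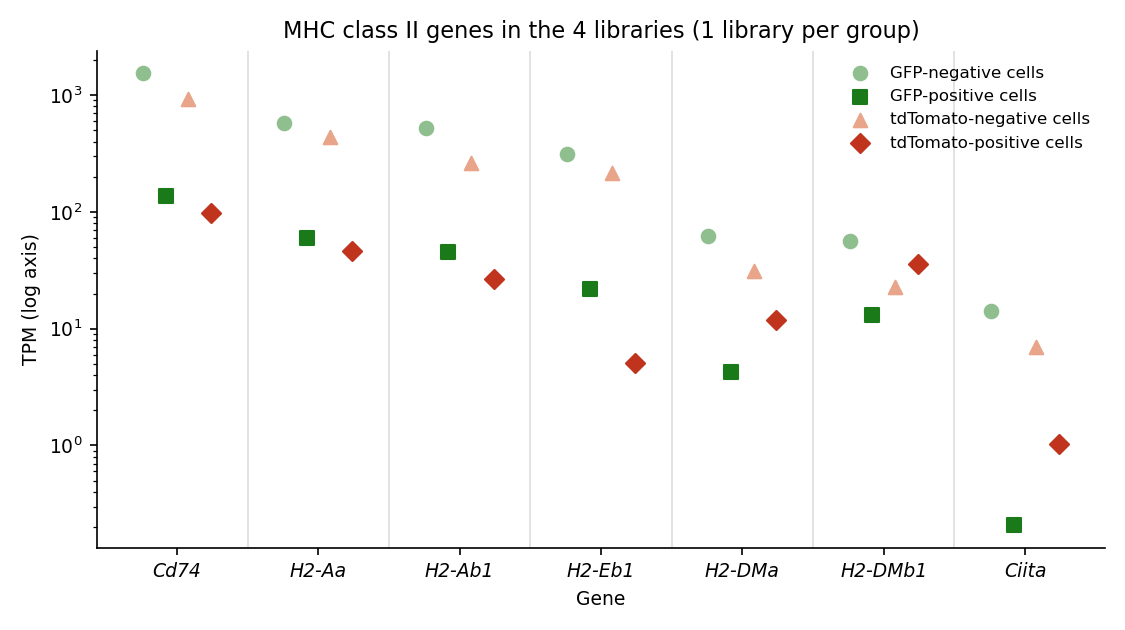
TPM (log axis) of the 7 MHC class II genes in the 4 libraries, with 1 point for each library. In both lines the reporter-positive points lie below the reporter-negative points for every gene except *H2-DMb1*, which was at 22.9 TPM in the tdTomato-negative library and 35.7 TPM in the tdTomato-positive library, and scaling the libraries to mature OSN markers also turned *H2-DMb1* in the enhancer 1 line.

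For single genes, fold changes are on the log2(TPM + 1) scale, where genes at low levels appear to differ less than they do, and a gene was counted if it had at least 1 TPM in either library of a comparison. All 7 genes were at least 2-fold lower in the GFP-positive than in the GFP-negative library, and none was at least 2-fold higher. Of the 16173 genes compared, 45% were at least 2-fold lower and 14.2% were at least 2-fold higher. In the enhancer 2 line 6 of the 7 genes were at least 2-fold lower in the tdTomato-positive library and none was at least 2-fold higher, beside 23.2% and 17.2% of the 15777 genes compared. The median log2 fold change of the 7 genes was -3.52 in the enhancer 1 line and -3.22 in the enhancer 2 line, while that of all genes compared was -0.88 and -0.23. The all-gene median of the enhancer 1 line moves with the scaling of the libraries. A scaling to the median ratio of genes shifted the fold changes of that line upward by 0.88 and those of the enhancer 2 line by 0.16, removal of the 24 highest genes shifted them by 0.51 and 0.05, and a scaling to 12 mature OSN markers shifted them by 3.04 and 1.05. Under this last scaling the count of genes at least 2-fold lower in the enhancer 1 line was 1 of 7, beside 1272 of the 16173 genes compared, and 12374 of these were at least 2-fold higher. The ratios between genes of the same library, given below, do not depend on any scaling.

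The invariant chain gene *Cd74* had the highest level of the 7 genes in every library, with 1535 TPM in the GFP-negative library, 136 TPM in the GFP-positive library, 922 TPM in the tdTomato-negative library, and 97.8 TPM in the tdTomato-positive library. It was the 45th most abundant of all genes in the GFP-negative library and the 101st in the tdTomato-negative library, and ranked 749th and 2168th in the reporter-positive libraries. Its log2 fold change was -3.48 in the enhancer 1 line and -3.22 in the enhancer 2 line.

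The I-A genes had the highest levels after *Cd74*, except that *H2-DMb1* was above *H2-Ab1* in the tdTomato-positive library. *H2-Aa* was at 572 TPM in the GFP-negative library, 59.8 TPM in the GFP-positive library, 441 TPM in the tdTomato-negative library, and 45.8 TPM in the tdTomato-positive library, with a log2 fold change of -3.24 in both lines. *H2-Ab1* was at 527, 45.2, 260.2, and 26.7 TPM in the same order, with log2 fold changes of -3.52 and -3.24. Both reporter-negative libraries were thus above both reporter-positive libraries for either chain, by 9.57-fold and 9.63-fold for *H2-Aa* and by 11.7-fold and 9.74-fold for *H2-Ab1* within the lines. Without a pseudocount, 10.5% and 10.4% of the reporter-negative level of *H2-Aa* and 8.57% and 10.3% of that of *H2-Ab1* remained.

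While the levels of *Cd74* and the I-A chains differed by 9.43-fold to 11.7-fold within the lines, the proportions between them were similar in the 4 libraries. *Cd74* was at 2.68 times the level of *H2-Aa* in the GFP-negative library, 2.28 times in the GFP-positive library, 2.09 times in the tdTomato-negative library, and 2.13 times in the tdTomato-positive library. The ratio of *Cd74* to *H2-Ab1* was 2.91, 3.02, 3.54, and 3.66 in the same order. The highest of the 4 ratios was 1.28 times the lowest for *H2-Aa* and 1.26 times the lowest for *H2-Ab1*. The ratio of *H2-Aa* to *H2-Ab1* was 1.09 and 1.32 in the enhancer 1 line and 1.70 and 1.72 in the enhancer 2 line, so it differed more between the lines than between the sorted cells of a line.

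The proportion of the I-E beta chain gene varied more than these among the libraries, and it was lowest in the tdTomato-positive library. C57BL/6 mice, the strain given in the labels, make no I-E alpha chain, and the alpha chain gene is annotated as the polymorphic pseudogene *H2-Ea-ps*, which was at 0.61 TPM or less in all 4 libraries. *H2-Eb1* was nevertheless at 311 TPM in the GFP-negative library, 22.0 TPM in the GFP-positive library, 215 TPM in the tdTomato-negative library, and 5.06 TPM in the tdTomato-positive library. The log2 fold change was -3.76 in the enhancer 1 line and -5.15 in the enhancer 2 line, the most negative of the 7 genes in the enhancer 2 line. In the enhancer 1 line *Ciita* was more negative under each of the 3 other scalings (-3.28 against -2.90 with the median ratio) and without a pseudocount (-6.09 against -3.82). The ratio of *H2-Eb1* to *H2-Ab1* was 0.591 in the GFP-negative library, 0.487 in the GFP-positive library, and 0.825 in the tdTomato-negative library, but 0.190 in the tdTomato-positive library. The highest of these ratios was 4.35 times the lowest.

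The H2-M genes were below the I-A and I-E chains in 3 of the 4 libraries. In the tdTomato-positive library *H2-DMb1* was above *H2-Ab1* and both H2-M genes were above *H2-Eb1*. *H2-DMa*, the alpha chain, was at 61.7 TPM in the GFP-negative library, 4.22 TPM in the GFP-positive library, 31.3 TPM in the tdTomato-negative library, and 11.8 TPM in the tdTomato-positive library. The log2 fold change was -3.59 in the enhancer 1 line and -1.33 in the enhancer 2 line, and 6.84% and 37.8% of the reporter-negative level remained. *H2-DMb1*, a beta chain, was at 56.8 TPM, 13.1 TPM, 22.9 TPM, and 35.7 TPM in the same order. Of the 7 genes it alone was higher in the reporter-positive library of a line, with a log2 fold change of 0.62 in the enhancer 2 line, which did not reach 2-fold. In the enhancer 1 line its log2 fold change was -2.03, and this turned to 0.91 when the libraries were scaled to mature OSN markers. The ratio of *H2-DMb1* to *H2-DMa* was 0.920 and 0.733 in the reporter-negative libraries and 3.11 and 3.02 in the reporter-positive libraries.

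The second beta chain gene of the locus, *H2-DMb2*, is no member of the 7 genes but bears on *H2-DMb1*. It was at 273 TPM in the GFP-negative library, 3.91 TPM in the GFP-positive library, 125 TPM in the tdTomato-negative library, and 32.5 TPM in the tdTomato-positive library, with log2 fold changes of -5.80 and -1.91. *H2-DMb1* supplied 17.2% of the summed TPM of both beta chain genes in the GFP-negative library and 15.5% in the tdTomato-negative library, but 77.0% in the GFP-positive library and 52.4% in the tdTomato-positive library. The ratio of *H2-DMb1* to *H2-DMb2* was 0.208 and 0.184 in the reporter-negative libraries and 3.36 and 1.10 in the reporter-positive libraries, and its highest value was 18.3 times its lowest. The ratio of the summed beta chains to *H2-DMa* stayed between 4.03 and 5.76, and the highest was 1.43 times the lowest. In the GENCODE M21 transcripts, 369 of the 1629 windows of 50 bases of *H2-DMb1* (22.7%) also occur in *H2-DMb2*, which is 21.2% of the windows of *H2-DMb2*. Reads from these stretches fit both genes, so the split between them depends on how the authors' tool divided such reads, and the level of each beta chain gene is uncertain where the sum of both is less so. No window of the other 6 genes was shared with another MHC class II gene listed here, and genes outside that set were not compared.

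**Figure D2:**
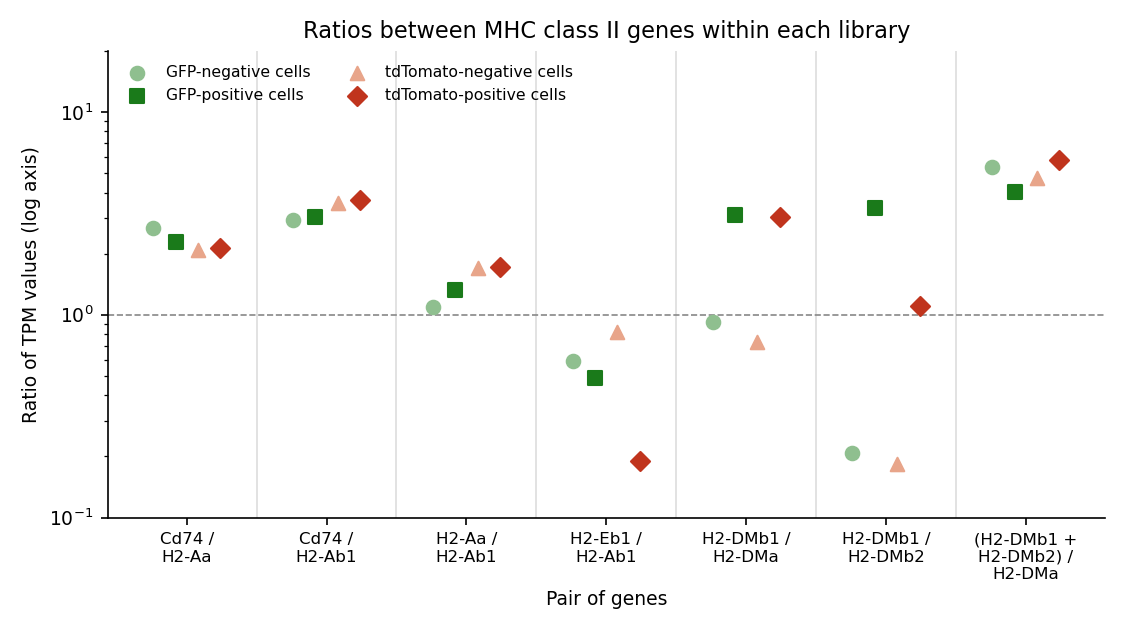
Ratio of TPM values (log axis) for 7 pairs of MHC class II genes, with 1 point for each library and a dashed line at a ratio of 1. The ratios of *Cd74* to the I-A chains and of the summed H2-M beta chains to *H2-DMa* lie close together in the 4 libraries, *H2-Eb1* over *H2-Ab1* is low in the tdTomato-positive library (0.190), and the ratios with *H2-DMb1* alone separate the reporter-positive from the reporter-negative libraries.

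The transactivator gene *Ciita* had the lowest level of the 7 genes in every library, with 14.2 TPM in the GFP-negative library, 0.208 TPM in the GFP-positive library, 6.91 TPM in the tdTomato-negative library, and 1.03 TPM in the tdTomato-positive library. Its log2 fold changes were -3.65 and -1.96 with the pseudocount of 1, and 1.47% and 15% of the reporter-negative level remained without a pseudocount. *Ciita* is thus a gene whose fold change depends on the pseudocount, and it ranged from -5.53 to -1.24 in the enhancer 1 line and from -2.63 to -0.62 in the enhancer 2 line with pseudocounts of 0.1 and 10. The factors on which the transactivator docks had fold changes nearer to 0 as deposited, but not in the enhancer 1 line when scaled to mature OSN markers, where their median log2 fold change was 2.02, near the 1.97 of all genes, and that of the 7 MHC class II genes was -0.50. Of 7 such genes as deposited, 3 were at least 2-fold lower in the GFP-positive library (*Nfya*, *Nfyc*, and *Creb1*) and 1 in the tdTomato-positive library (*Rfxank*), beside 45% and 23.2% of all genes, and none was at least 2-fold higher. *Rfx5*, a DNA-binding subunit of the RFX complex, was at 16.1, 8.63, 14.4, and 17.2 TPM in GFP-negative, GFP-positive, tdTomato-negative, and tdTomato-positive cells. The median log2 fold change of the 7 factors was -0.83 and -0.39, close to that of all genes, and their direction turned with the scaling for 7 of 7 genes in the enhancer 1 line and for 5 of 7 in the enhancer 2 line. The remaining RFX genes had log2 fold changes of -0.20 and -0.78 (*Rfxap*) and of -0.68 and -1.28 (*Rfxank*). Among the NF-Y genes the values were -1.06 and -0.56 (*Nfya*), -0.29 and -0.15 (*Nfyb*), and -1.73 and -0.26 (*Nfyc*), and *Creb1*, which binds between the boxes, was at -1.57 and -0.39.

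The other MHC class II genes of the locus were lower in the reporter-positive libraries too, except that *H2-Ea-ps*, at under 1 TPM, turned with the scaling in the enhancer 1 line. Of 5 genes, 4 reached 1 TPM, and all 4 were at least 2-fold lower in the reporter-positive library of both lines, under each of 4 scalings in the enhancer 1 line and under each except the scaling to mature OSN markers, which left 2, in the enhancer 2 line. *H2-Oa* and *H2-Ob* encode H2-O, a brake on H2-M that is known mainly from B cells and some dendritic cells. *H2-Oa* was at 47.6 TPM in the GFP-negative library, 0.964 TPM in the GFP-positive library, 29.3 TPM in the tdTomato-negative library, and 0.0563 TPM in the tdTomato-positive library. *H2-Ob* was at 64.6, 3.66, 30.5, and 10.1 TPM. The chains were thus near the same level in the reporter-negative libraries, with a ratio of *H2-Ob* to *H2-Oa* of 1.36 and 1.04, and apart in the reporter-positive libraries, with a ratio of 3.79 in the GFP-positive library and of 180 in the tdTomato-positive library, where *H2-Oa* was near 0. *H2-Eb2*, a second I-E beta chain gene, was at 19.9 TPM and 5.99 TPM in the reporter-negative libraries, was listed at 0 in the GFP-positive library, and was at 0.0175 TPM in the tdTomato-positive library.

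**Figure D3:**
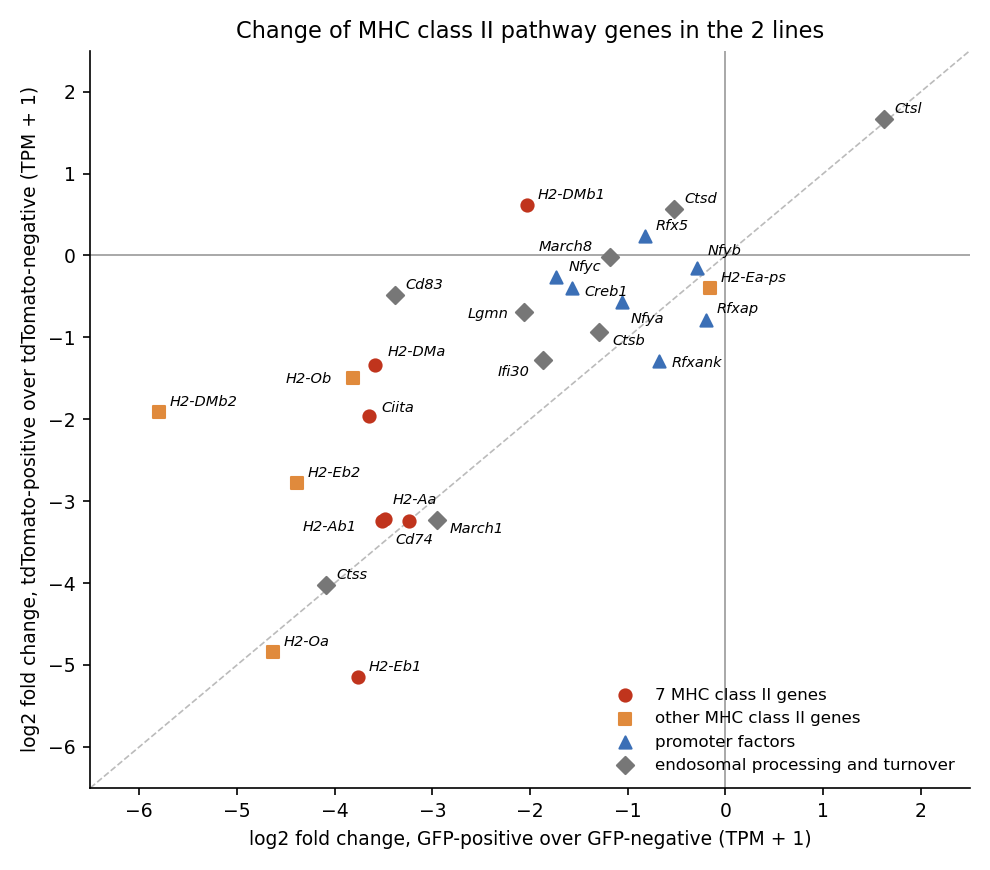
log2 fold change on the log2(TPM + 1) scale in the enhancer 1 line (horizontal axis) and the enhancer 2 line (vertical axis) for MHC class II genes, promoter factors, and endosomal genes, with a dashed line where both are equal and 1 point for each gene. *Cd74* and the I-A chains lie near the dashed line at about the same place, *H2-Eb1* lies below it, the H2-M genes, *H2-Ob*, and *Ciita* lie above it, and the promoter factors lie nearer to 0 as deposited, with directions that turned under another scaling for *H2-DMb1*, *H2-Ea-ps*, all 7 factors, and 5 endosomal genes in the enhancer 1 line and for 5 factors and 4 endosomal genes in the enhancer 2 line.

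Genes of the endosomal steps did not share a single pattern. Of 9 such genes, 7 were at least 2-fold lower in the GFP-positive library and 3 in the tdTomato-positive library, beside 45% and 23.2% of all genes, and 1 was at least 2-fold higher in each. In the enhancer 1 line 4 were lower with the median-ratio scaling, and 1 was lower and 5 were higher when scaled to mature OSN markers. *Ctss* encodes cathepsin S, the protease that trims the invariant chain in dendritic cells and B cells. It was at 496 TPM in the GFP-negative library, 28.1 TPM in the GFP-positive library, 228 TPM in the tdTomato-negative library, and 13.1 TPM in the tdTomato-positive library, with log2 fold changes of -4.09 and -4.02. *Ctsl* encodes cathepsin L, which does this work in thymic epithelium, and it was at 78.5, 244, 58.1, and 187 TPM, with log2 fold changes of 1.62 and 1.67. The ligase gene *March1*, whose product removes MHC class II from the surface of resting dendritic cells and B cells, was at 11, 0.557, and 8.39 TPM in GFP-negative, GFP-positive, and tdTomato-negative cells and was listed at 0 in the tdTomato-positive library. *Cd83*, which counters that ligase, was at 39.3, 2.87, 14.0, and 9.72 TPM.

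*Ifi30*, the thiol reductase of the endosome, was at least 2-fold lower in both lines, with log2 fold changes of -1.87 and -1.27. The remaining endosomal genes are used by most cells, and their log2 fold changes were -2.06 and -0.69 (*Lgmn*), -1.29 and -0.93 (*Ctsb*), -0.53 and 0.56 (*Ctsd*), and -1.19 and -0.02 (*March8*). Scaling turned the direction of 5 of the 9 genes in the enhancer 1 line (*Lgmn*, *Ifi30*, *Ctsb*, *Ctsd*, and *March8*) and of 4 in the enhancer 2 line (*Lgmn*, *Ctsb*, *March8*, and *Cd83*), and that of *Ctss*, *Ctsl*, and *March1* in neither.

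MHC class I, which nearly all cells make, was less far apart between the sorted cells as deposited. This order did not hold in the enhancer 1 line when scaled to mature OSN markers, where the median log2 fold change was 1.93 for class I, near the 1.97 of all genes, and -0.50 for class II. Under that scaling 12 of 13 class I genes were at least 2-fold higher, beside 12374 of all 16173 genes. Of 13 class I pathway genes compared as deposited, 7 were at least 2-fold lower in the reporter-positive library of each line, beside 45% and 23.2% of all genes, and none was at least 2-fold higher, with median log2 fold changes of -1.08 and -1.14, and the scaling turned the direction of 12 of them in the enhancer 1 line and of 5 in the enhancer 2 line. *H2-K1*, a class I heavy chain, was at 839 TPM in the GFP-negative library, 894 TPM in the GFP-positive library, 474 TPM in the tdTomato-negative library, and 548 TPM in the tdTomato-positive library. *H2-D1* was at 254, 164, 146, and 84.8 TPM, and *B2m*, the light chain, was at 1759, 808, 1260.4, and 300.5 TPM. *H2-Q7* was listed at 0 in all 4 libraries. The summed TPM of the 7 class II genes was 0.834 and 0.773 times that of the class I pathway in the reporter-negative libraries and 0.122 and 0.189 times in the reporter-positive libraries, a difference that no scaling of the libraries can change.

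Pan-leukocyte markers differed between the sorted cells in the same direction as the MHC class II genes, and by more. The summed TPM of 8 pan-leukocyte markers was 2059 in the GFP-negative library, 66.0 in the GFP-positive library, 1728 in the tdTomato-negative library, and 41.0 in the tdTomato-positive library. Of these markers all 8 were at least 2-fold lower in each line, beside 45% and 23.2% of all genes, with median log2 fold changes of -5.15 and -5.12. *Cd52* was at 661, 13.0, 546, and 13.4 TPM, *Arhgdib* at 367, 27.9, 208, and 2.67 TPM, and *Coro1a* at 315, 6.62, 264, and 11.3 TPM. The summed MHC class II level was 1.5 times that of the pan-leukocyte markers in the GFP-negative library and 4.26 times in the GFP-positive library, and 1.10 times in the tdTomato-negative library and 5.46 times in the tdTomato-positive library. In sorted bulk cells, fewer cells of a type and less RNA per cell cannot be told apart.

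The classes of leukocytes that present antigen differed from each other. The 8 B cell markers summed to 824 TPM in the GFP-negative library and 270.3 TPM in the tdTomato-negative library, and to 1.91 TPM in the GFP-positive library and 5.22 TPM in the tdTomato-positive library. The B cell receptor genes *Cd79a* and *Cd79b* were at 192 and 257 TPM in the GFP-negative library and at 0.0293 and 0.0325 TPM in the GFP-positive library. They were at 57.8 and 72.4 TPM in the tdTomato-negative library and at 0.134 and 2.42 TPM in the tdTomato-positive library. Of the 8 markers, 1 was listed at 0 in the GFP-positive library and 4 in the tdTomato-positive library. The summed MHC class II level was 3.74 and 7.02 times that of the B cell markers in the reporter-negative libraries and 147 and 42.9 times in the reporter-positive libraries.

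The 10 macrophage markers summed to 968 TPM in the GFP-negative library, 81.8 TPM in the GFP-positive library, 245 TPM in the tdTomato-negative library, and 79.4 TPM in the tdTomato-positive library, and none was listed at 0. The complement genes *C1qa*, *C1qb*, and *C1qc* were at 170.3, 217, and 197 TPM in the GFP-negative library, at 16.7, 16.7, and 15.1 TPM in the GFP-positive library, at 45.1, 49.6, and 43.4 TPM in the tdTomato-negative library, and at 21.7, 27.7, and 15.4 TPM in the tdTomato-positive library. All 10 macrophage markers were at least 2-fold lower in the GFP-positive library and 6 of 9 in the tdTomato-positive library, beside the same shares of all genes, with median log2 fold changes of -3.50 and -1.34. The summed MHC class II level was 3.18 times that of the macrophage markers in the GFP-negative library, 3.43 times in the GFP-positive library, 7.75 times in the tdTomato-negative library, and 2.82 times in the tdTomato-positive library, a narrower range than beside B cell or pan-leukocyte markers. The same ratio was not taken for dendritic cell markers, so the range does not single out macrophage markers.

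The 11 dendritic cell markers summed to 167, 18, 161, and 39.0 TPM in GFP-negative, GFP-positive, tdTomato-negative, and tdTomato-positive cells. *Xcr1* was listed at 0 in all 4 libraries, and 2 of the 11 markers were listed at 0 in the GFP-positive library and 6 in the tdTomato-positive library. *Irf8* was at 46.1, 4.17, 24.6, and 7.06 TPM, *Itgax* at 24.6, 2.96, 44.0, and 1.09 TPM, and *Zbtb46* at 21.2, 3.98, 25.7, and 10.01 TPM. Of the markers compared, 8 of 10 were at least 2-fold lower in the GFP-positive library and 8 of 9 in the tdTomato-positive library, again beside 45% and 23.2% of all genes. The exception in the latter was *Clec10a*, singled out after its values were seen, which was at 2.52, 4.10, 4.97, and 19.7 TPM in the order above, with log2 fold changes of 0.53 and 1.80. When the libraries were scaled to mature OSN markers, the genes at least 2-fold lower in the enhancer 1 line were 1 of the 7 MHC class II genes, 6 of 8 pan-leukocyte markers, 8 of 8 B cell markers, 2 of 10 macrophage markers, and 3 of 10 dendritic cell markers, beside 1272 of all 16173 genes. The part of each cell class in the MHC class II values was not tested.

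Markers of other cell types were read in the same libraries. The 8 T cell markers summed to 307, 4.14, 392, and 4.94 TPM in the order used above, and *Cd3g* was at 66.8, 0.380, 104, and 0.404 TPM, *Lck* at 56.0, 0.999, 64.3, and 0.0514 TPM, and *Cd2* at 77.8, 0.850, 42.6, and 0.258 TPM. The 5 neutrophil markers summed to 5929, 50.2, 1938, and 4.82 TPM, and 2 of them were listed at 0 in the tdTomato-positive library. They were led by *S100a9*, *S100a8*, and *Retnlg* in both libraries of the enhancer 1 line. In the enhancer 2 line *Csf3r* was above *Retnlg*, at 186 and 1.47 TPM against 55.1 and 0 TPM. The 5 endothelial markers summed to 45.7, 1.6, 42.9, and 6.32 TPM, nearly all from *Pecam1*, which leukocytes also make, while *Kdr* and *Cdh5* were at 1.86 TPM or less in every library. The 6 epithelial markers went the other way, with sums of 397, 2049, 692, and 1804 TPM, and *Krt18*, *Krt8*, and *Epcam* were at 769, 588, and 299.7 TPM in the GFP-positive library and at 69.7, 56.2, and 228 TPM in the GFP-negative library. The 12 mature OSN markers summed to 29746, 3391, 30621, and 13927 TPM, with *Omp* at 9584, 1108, 10108, and 4427 TPM, *Stoml3* at 8815, 764, 8419, and 3332 TPM, and *Gng13* at 2885, 362, 2499, and 1207 TPM. The summed markers of sustentacular cells were 853, 6203, 1330, and 3985 TPM. All 5 were at least 2-fold higher in the GFP-positive library, whereas in the enhancer 2 line 1 was higher (*Cyp2a5*, from 745 to 3572 TPM) and 2 were lower, among them *Cyp2g1* (from 248 to 84.9 TPM), *Sult1c1* was at 291 and 304 TPM, and the median log2 fold change was 0.06. The summed markers of horizontal basal cells were 43.9, 608, 113, and 32.2 TPM, with *Krt15* at 8.81, 262, 19.5, and 3.99 TPM, *Krt5* at 15.7, 199.6, 56.5, and 16.5 TPM, and *Krt14* at 14.9, 118, 29.4, and 5.55 TPM. Of these 5 markers all were at least 2-fold higher in the GFP-positive library, and 4 were at least 2-fold lower and 1 (*Cav1*, named after its values were seen, from 1.04 to 4.29 TPM) higher in the tdTomato-positive library. The summed markers of multiciliated cells were 351, 1355, 350.04, and 4609 TPM, with *Rsph1* at 148, 314, 142, and 968 TPM and *Foxj1* at 126, 302, 114, and 976 TPM, while *Ccdc153* was listed at 0 in the GFP-negative library and was at 583, 13.6, and 2009.8 TPM in the others. Epithelial markers and mature OSN markers thus differed between the sorted cells beside the MHC class II genes, and their part in the difference was not tested.

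**Figure D4:**
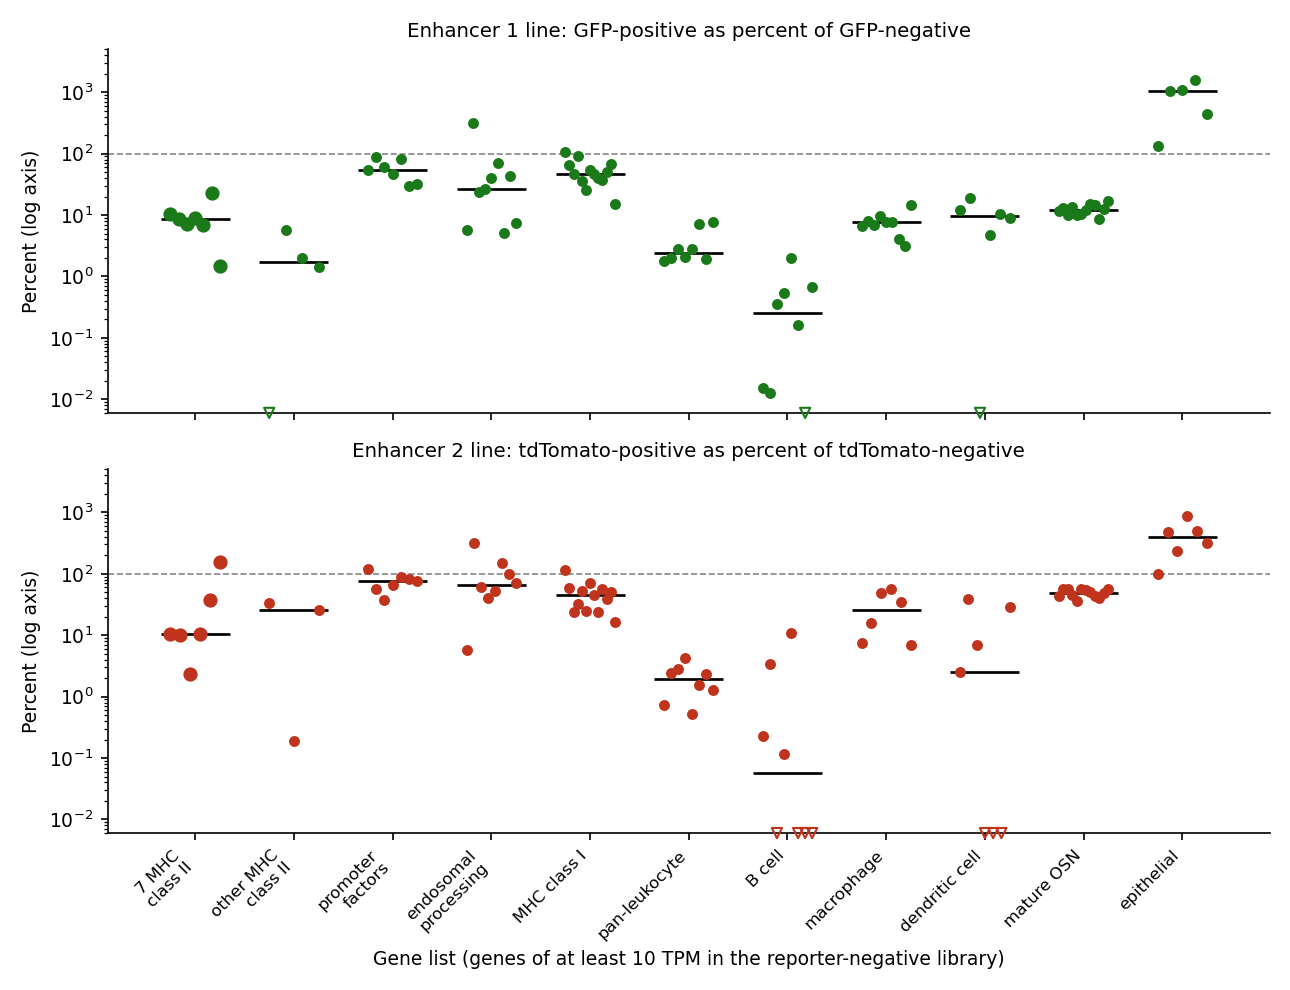
TPM in reporter-positive cells as a percent of the TPM in reporter-negative cells (log axis) for genes with at least 10 TPM in the reporter-negative library, by gene list, in the enhancer 1 line (top) and the enhancer 2 line (bottom). Points are genes, horizontal bars are medians, open triangles at the lower edge are genes listed at 0 in the reporter-positive library, and the dashed line is 100%. The medians of the MHC class II genes are 8.57% of 7 genes and 10.5% of 6 genes, without *Ciita* in the enhancer 2 line, but genes were picked by the level that is also the divisor, which favours low percents, so the medians are not ranked here, and scaling the libraries to mature OSN markers moves all points of the top panel upward together.

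The reporter-negative libraries were then compared with each other, since both hold cells without the reporter. All 7 genes were lower in the tdTomato-negative than in the GFP-negative library, with log2 fold changes from -0.37 for *H2-Aa* to -1.27 for *H2-DMb1*. *H2-Ab1* (-1.02) and *H2-DMb1* were at least 2-fold lower, which is 2 of 7 genes beside 12.4% of the 15899 genes compared, and none was at least 2-fold higher, beside 11.4%. The log2 ratio of the summed TPM was -0.70. The summed B cell markers, with a log2 ratio of -1.61, and the summed macrophage markers, with -1.98, were also lower in the tdTomato-negative library, while the summed pan-leukocyte markers (-0.25) and dendritic cell markers (-0.05) were nearer to 0. Single dendritic cell markers went both ways, with a median log2 fold change of 0.41. Of 10 compared, 2 were at least 2-fold lower and none was at least 2-fold higher, beside 12.4% and 11.4% of all genes. Lists of cells or genes outside class II presentation differed too, in both directions. The log2 ratios of their sums were -1.61 for neutrophil markers, -0.59 for MHC class I, 0.36 for T cell markers, 0.80 for epithelial markers, and 1.37 for horizontal basal cell markers. Of the 5 neutrophil markers 4 were at least 2-fold lower and 1 was at least 2-fold higher, beside 12.4% and 11.4% of all genes. The latter was *Csf3r*, at 61.6 TPM in the GFP-negative and 186 TPM in the tdTomato-negative library. The lines differ in transgene, reporter, founder, and, by the reporting summary, the range of ages, and the part of each cannot be told apart.

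Between the reporter-positive libraries the 7 genes differed in both directions. *H2-Eb1* was 4.34-fold lower in the tdTomato-positive than in the GFP-positive library, with a log2 fold change of -1.92. As deposited, it was the only one of the 7 genes at least 2-fold lower, beside 11.7% of the 15121 genes compared. The count was 4 of 7 with the median-ratio scaling (beside 2873 of all genes), 2 of 7 without the highest genes (beside 2308), and 4 of 7 when scaled to mature OSN markers (beside 9914). *H2-DMa* (1.3) and *H2-DMb1* (1.38) were at least 2-fold higher in the tdTomato-positive library as deposited, beside 34.9% of genes. Neither reached 2-fold with the median-ratio scaling (0.64 and 0.65) or without the highest genes (0.94 and 0.97), and both turned when the libraries were scaled to mature OSN markers (-0.62 and -0.69). *Cd74* (-0.47), *H2-Aa* (-0.38), *H2-Ab1* (-0.74), and *Ciita* (0.75) stayed within 2-fold as deposited. The all-gene median of this comparison was 0.69.

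The genes with the most similar profile were sought among the 13010 genes that reached 10 TPM in at least 1 library. For each gene, log2(TPM + 1) was centred on its mean over the 4 libraries, and the Euclidean distance to the mean profile of the 7 genes was taken. That profile was 1.87 in the GFP-negative library, -1.45 in the GFP-positive library, 1.04 in the tdTomato-negative library, and -1.46 in the tdTomato-positive library. The nearest gene was *Adgre1*, which encodes the macrophage antigen F4/80, at a distance of 0.13, with 44.4 TPM in the GFP-negative library, 3.50 TPM in the GFP-positive library, 21.7 TPM in the tdTomato-negative library, and 3.37 TPM in the tdTomato-positive library. The next 9 were *Olfr94*, *Pilrb1*, *Apol7e*, *B430306N03Rik*, *Tlr7*, *Hist1h4d*, *Tbxas1*, *AI607873*, and *Olfr1306*, at distances from 0.20 to 0.35. Of these 9 genes, 6 were listed at 0 in both reporter-positive libraries, so that their distance depends on the pseudocount. The 7 genes themselves lay at distances from 0.53 (*H2-Aa*) to 2.44 (*H2-DMb1*), and *Cd74* (0.55) and *Ciita* (0.56) were close to *H2-Aa*, while *H2-Eb1* (2.06) and *H2-DMb1* were the farthest.

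In the GENCODE M21 annotation of GRCm38, also called mm10, 10 of the MHC class II genes listed here, of which 5 are members, lie on chromosome 17 between 34092340 and 34344645, a span of 252306 bases. *H2-Eb1* overlaps *Gm20513*, and *H2-DMa* overlaps *Brd2* and 3 other annotated genes, so reads in these overlaps could belong to either gene. *Ciita* lies on chromosome 16 from 10480059 to 10528418 and overlaps *Dexi*, and *Cd74* lies on chromosome 18 and overlaps *Mir5107*. Genes of the locus did not share a single fold change, with values from -5.15 to 0.62 for the 5 members on chromosome 17 in the enhancer 2 line, and from -3.76 to -2.03 in the enhancer 1 line, where the -2.03 of *H2-DMb1* turned under the scaling to mature OSN markers.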

How the data were processed

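RNA-seq was performed on 4 FACS-sorted cell groups of the MOE, with 1 library for each. The deposited values are TPM for each gene symbol, made by the authors, and no counts were used. The submitters' processing notes name Trimmomatic 0.36 and Salmon 1.4.0 with mm10, while the methods of the study name Hisat2, Cufflinks, and featureCounts; the gene annotation is not given in the sources used here. The labels and the methods also name different RNA and library kits. TPM keeps no depth, so the depth and precision of each value are unknown. Groups were taken from sample titles.

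TPM values were used as deposited. Fold changes used a pseudocount of 1 TPM, changes of summed TPM were log2 ratios, and genes with at least 1 TPM in either library were counted at a fold of 2. With 1 library per group, differences within a line cannot be tested, and no fit over both lines was made. Pseudocounts of 0.1 and 10, minimum levels, a fold of 4, and 3 scalings were tried. These were the median ratio over 11943 genes, removal of 24 genes among the 10 highest of any library, and an equal mean log2(TPM) of 12 mature OSN markers.

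The named genes are the 7 members, all genes of the lists of other MHC class II genes, promoter factors, and endosomal genes, the 3 genes of each other list with the highest mean TPM, 1 of which is not reported here, those listed at 0 in all libraries, and the 10 nearest profiles. The members and lists were chosen with earlier results of these data known. Symbols *H2-Ea* and *Ly6g* were not matched, and *Marchf1* and *Marchf8* were listed only as other symbols of *March1* and *March8*, which were. Positions and shared 50-base windows are from GENCODE M21, and promoters from RefSeq. The calculations were tested on simulated data. Python 3.11.15, NumPy 2.4.6, pandas 2.3.3, and matplotlib 3.10.9 were used.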

Additional observations from a re-analysis of the deposited data

Results flagged for a closer look

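*H2-DMb1* had opposite directions in the 2 lines, with a log2 fold change of -2.03 in the enhancer 1 line (from 56.8 TPM without to 13.1 TPM with the reporter) and of 0.62 in the enhancer 2 line (from 22.9 TPM to 35.7 TPM). The difference between the lines was not tested, since each group has 1 library. The direction in the enhancer 1 line turned to 0.91 when the libraries were scaled to mature OSN markers. Its paralog *H2-DMb2*, with which it shares 22.7% of its 50-base windows, had log2 fold changes of -5.80 and -1.91, and the sum of both genes had log2 ratios of -4.27 and -1.11.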

How the results depend on the processing

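Of the values of the summary results under the alternatives, 46 stayed within 0.58 on the log2 scale or within 1.5 times of the value as reported, and 10 moved, all of them under 2 of the 3 scalings. Under the median-ratio scaling, the log2 ratio of the summed genes was -2.57 in the enhancer 1 line and -1.10 between the reporter-positive libraries, and the median member fold change in the enhancer 1 line was -2.64. When the libraries were scaled to mature OSN markers, the log2 ratios of the summed genes were -0.41 in the enhancer 1 line, -2.03 in the enhancer 2 line, and -2.48 between the reporter-positive libraries. The medians were then -0.50 and -2.17, 1 gene was at least 2-fold lower in the enhancer 1 line (beside 1272 of all 16173 genes), and 1 gene was at least 2-fold higher in the enhancer 2 line (beside 6086 of all 15777). *H2-DMb1* turned to 0.91 in the enhancer 1 line. For single genes 44 values stayed, 25 moved, and 1 reversed. Among all genes of the enhancer 1 line, 7283 were at least 2-fold lower and 2291 higher as deposited, and 3514 and 3457 with the median-ratio scaling. No replicate could be left out, since every group has 1 library, and a fit of reporter status with the line as a block, which would leave 1 residual degree of freedom, was not run. The depth behind low values, such as those of *Ciita* in reporter-positive cells, is unknown.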

Other observations

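Genes of the interferon gamma response, the pathway that can switch on *Ciita* in cells that do not present antigen by profession, differed less between the sorted cells than the MHC class II genes as deposited. This order did not hold in the enhancer 1 line when scaled to mature OSN markers, where the median log2 fold change was 1.83, near the 1.97 of all genes, and that of the MHC class II genes was -0.50. Under that scaling 10 of 13 genes were at least 2-fold higher, beside 12374 of all 16173 genes. Of 13 genes compared as deposited, 7 were at least 2-fold lower in the reporter-positive library of each line, beside 45% and 23.2% of all genes, none was at least 2-fold higher in the enhancer 1 line, and 1 was in the enhancer 2 line. As deposited, the median log2 fold change was -1.08 and -1.06, and the scaling turned the direction of 13 of them in the enhancer 1 line and of 4 in the enhancer 2 line. *Jak1* was at 143 TPM in the GFP-negative library, 51.5 TPM in the GFP-positive library, 154 TPM in the tdTomato-negative library, and 79.3 TPM in the tdTomato-positive library. *Jak2* was at 49.6, 31.2, 82.0, and 38.7 TPM, and the receptor gene *Ifngr1* was at 74.9, 22.6, 67.6, and 14.9 TPM in the same order.

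Of 6 genes for costimulatory and adhesion molecules, 5 were at least 2-fold lower in the reporter-positive library of each line, beside 45% and 23.2% of all genes, with median log2 fold changes of -2.72 and -2.42. When scaled to mature OSN markers, 2 were lower and 1 was higher in the enhancer 1 line, with a median of -0.34, and *Cd274* and *Icosl* turned to 0.75 and 0.07. *Cd274*, which encodes PD-L1, was at 26.1, 5.48, 61.2, and 14.1 TPM in GFP-negative, GFP-positive, tdTomato-negative, and tdTomato-positive cells, and *Icosl* was at 20.7, 2.65, 17.1, and 1.59 TPM. *Icam1* was at 19.8, 29.6, 39.3, and 1.12 TPM, so it was lower in the reporter-positive library of the enhancer 2 line and not in that of the enhancer 1 line, and the difference between the lines was not tested.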
